A study of Drosophila melanogaster with 2 samples.

Results

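The elav family of Drosophila melanogaster comprises elav, fne and Rbp9, which encode RNA-binding proteins of neurons. These 3 genes, of 13945 protein-coding genes on the 6 chromosome arms used, were chosen by the strong peak of an Eip74EF chromatin immunoprecipitation at the elav promoter. The choice also rested on the premise that other neuronal promoters lack such peaks. The values at these promoters are therefore a description and were not tested. The premise did not hold for every neural gene. Of 72 others listed below, 16 (22.2%) had a promoter peak in the most stringent peak list, and 1, msi, was above elav. Every peak summit from 2 kb upstream of each gene to its end was described. The data came from whole embryos of mixed sex aged 8 to 16 h from 1 transgenic line, which stably expressed Eip74EF, an ETS-domain transcription factor of the ecdysone response, with a C-terminal enhanced green fluorescent protein. Chromatin was sonicated to 200 to 800 bp, immunoprecipitated through the tag with an anti-GFP antibody and sequenced. The 2 samples, biological replicates 3 and 1, formed 1 group, and no untagged or untreated samples were among them. The labels do not name the promoter that drives the fusion gene.

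A total of 4 peak lists were used. One list was called for each replicate and one for the pooled replicates, each with 30000 peaks, and the list thresholded on the irreproducible discovery rate (IDR) held 5004. All 5004 IDR peaks were the strongest peaks of the pooled list, so an IDR peak and its pooled counterpart are 1 measurement. Signal is the authors' own value for a peak, and its scale differs between the lists. Ranks are therefore given within a list, with rank 1 the strongest. Read depth was unknown.

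Proteins of the Elav family, called Hu proteins in vertebrates, carry RNA recognition motifs and bind U-rich sequences in transcripts. Elav is a nuclear protein of differentiated neurons that directs alternative splicing and favours distal polyadenylation sites, which gives many neuronal mRNAs long 3′ UTRs. The name of fne stands for found in neurons, and Fne and Elav share targets. Rbp9 acts in neurons and also in the female germ line. Neurons are only part of a whole embryo, so weak binding in many cells and strong binding in few cells cannot be told apart.

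All 3 genes had IDR summits, and 1 of the 3, elav, had one at its promoter, here within 500 bp of an annotated transcription start site (TSS). Over all protein-coding genes, 15.6% had an IDR summit at a promoter and 24.7% had one between 2 kb upstream and the gene end. Long genes have summits more often. Among the 889 genes with windows of 15673 to 34941 bp, the range of the 3 members, 56% had at least 1 IDR summit and 20.5% had 3 or more. A summit in the window is thus common at this length. The windows of elav, fne and Rbp9 held 3, 2 and 1 IDR summits, or 1.88, 0.572 and 0.638 per 10 kb, beside a median of 0.394 and an upper quartile of 1.02 over the 889 genes.

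The elav promoter summit is shown first, because it is the strongest peak of the family. It lay at chromosome X position 523513 on assembly dm6, 287 bp upstream of the first TSS of elav (FBgn0260400, minus strand, chrX:509235-523226). The noncoding RNA gene lncRNA:enrr starts at the same base as elav, so the peak cannot be assigned to one of them. The summit also lies in an intron of arg, the arginase gene, which overlaps most of elav on the opposite strand. The 201 bases around the summit, chrX:523413-523613 on the minus strand, run from 387 to 187 bp upstream of the TSS. Capitals mark GGAA or its reverse complement TTCC, the core of sequences that ETS factors bind.
elav promoter summit: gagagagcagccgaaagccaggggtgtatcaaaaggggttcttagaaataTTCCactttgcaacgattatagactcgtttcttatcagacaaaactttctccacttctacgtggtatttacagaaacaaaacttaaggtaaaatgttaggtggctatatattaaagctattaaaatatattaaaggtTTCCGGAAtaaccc

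The ETS core GGAA occurs at 3 places in this stretch, and 2 of them adjoin in the palindrome TTCCGGAA. The palindrome lies 200 to 193 bp upstream of the TSS and begins 87 bp downstream of the summit. It was singled out after the sequence had been seen, and 15 of the 5004 windows of 201 bases around IDR summits (0.2998%) held it. The shorter string CGGAA was in 31.7% of these windows and GGAA in 79.0%. Within 50 bp of the elav summit, by contrast, only a single TTCC occurred, at the edge of the window. A match is a description of the letters and not of a binding site.

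The elav promoter peak had a signal of 1299 in the IDR and pooled lists, 805.9 in replicate 3 and 485.7 in replicate 1. It ranked 97 of 5004 in the IDR list, 104 of 30000 in replicate 3 and 87 of 30000 in replicate 1. Its summit differed by 19 bp in replicate 3 and by 3 bp in replicate 1 from the pooled position. Both replicates thus placed the peak at the same site and at nearly the same rank. The signal was 4.6 times the median IDR peak and 4.26 times the median of the strongest promoter peak over the 2175 genes that had one, and 64 of these genes (2.94%) had a higher value.

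The remaining IDR summits of elav were near the lower limit of the list. One, at X 522617, lay 609 bp downstream of the first TSS in the first intron, with an IDR signal of 217.7 (rank 3872). Its peak was only 114 bp wide, beside a median of 427 bp over the IDR list. This summit had a signal of 107.3 in replicate 3 (rank 5927) and 120.2 in replicate 1 (rank 2085). It stood relatively higher in replicate 1. The ratio of replicate 3 to replicate 1 was 0.892, and 1.77% of the 4630 IDR summits found in both replicates had a lower one, with a median of 1.78. The other, at X 515941, had an IDR signal of 194.5 (rank 4631), with 126.2 in replicate 3 (rank 4618) and 72.9 in replicate 1 (rank 5213).

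The summit at X 515941 lay in the 3′ UTR of elav, in a part that a single transcript, elav-RD, covers. The 3′ UTR of elav-RD is 8557 bp long, beside 556 bp in elav-RA and elav-RC and 942 bp in elav-RB. Of the 12 pooled summits over elav, 6 lay in this extended 3′ UTR, 3 in introns and 3 upstream of the gene. This 3′ UTR makes up 53.5% of the 15992 bp window, so within elav its share of the summits is close to its share of the length. Over the whole lists, 2.38% of pooled summits and 1.54% of IDR summits lay in any annotated 3′ UTR. The pooled signals in the elav 3′ UTR were 194.5, 133.1, 104.0, 86.0, 78.2 and 41.0, and only the first passed the IDR threshold. All 12 pooled summits lie in an intron of arg as well, so the same positions are intronic on the other strand.

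All 12 pooled summits of elav recurred in at least 1 replicate. Within 100 bp, 8 of the 12 had a counterpart in both replicates, 3 in replicate 3 alone and 1 in replicate 1 alone, beside 49.8%, 27.8% and 14.7% of all 30000 pooled summits, while 7.71% of these had none. The strongest pooled peak below the IDR threshold was 1307 bp upstream of the first TSS, with a pooled signal of 155.0 (rank 6443), 103.8 in replicate 3 and 45.2 in replicate 1. The lowest IDR signal in the whole list was 184.6. The weakest IDR peak of the family, 194.5 at X 515941, and this peak at 155.0 stand on either side of that limit. In all, replicate 3 had 13 summits over elav, of which 7 had a partner within 100 bp in replicate 1 and 6 had none. Replicate 1 had 11, of which 7 had a partner in replicate 3 and 4 had none. Over each whole replicate list, 50.2% of the 30000 summits had no partner in the other.

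**Figure D1:**
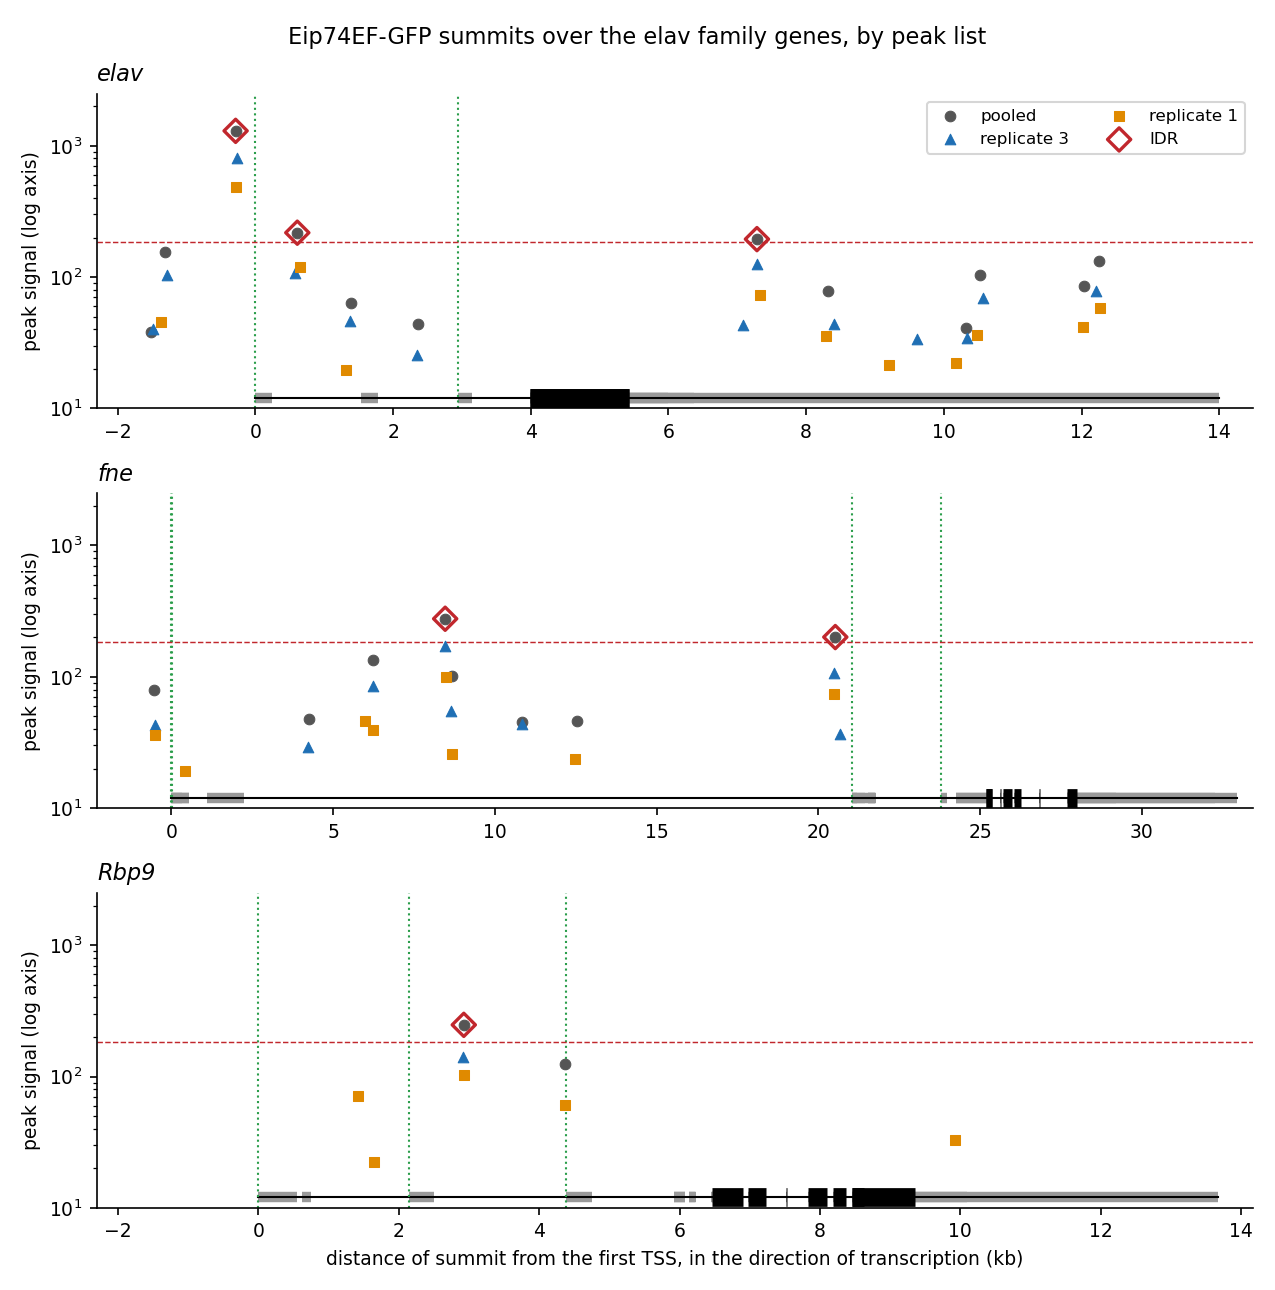
Summits over elav, fne and Rbp9 by distance from the first TSS in the direction of transcription (kb, horizontal) and peak signal (log axis, vertical), for the IDR (open diamonds), pooled (circles), replicate 3 (triangles) and replicate 1 (squares) lists. Dotted lines mark TSSs, the dashed line the lowest IDR signal of 184.6, and the bar at the bottom the gene with exons in grey and coding sequence in black. The elav promoter peak at 1299 stands above all other summits, and no summit lies over coding sequence.

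At fne the IDR summits lay in introns of the long transcripts, and neither was within 500 bp of a TSS. The gene (FBgn0086675, plus strand, chrX:12917477-12950417) has 4 annotated TSSs. The stronger summit, at X 12925940, lay 8456 bp downstream of the nearest TSS. Its signal was 276.8 in the IDR list (rank 2588), 172.4 in replicate 3 (rank 2795) and 100.1 in replicate 1 (rank 2948). The weaker one, at X 12938001, lay 516 bp upstream of a TSS at X 12938517, just outside the promoter window, with 200.7 in the IDR list (rank 4411), 106.0 in replicate 3 (rank 6048) and 73.7 in replicate 1 (rank 5121). Ranks were alike between replicates at both summits, and the ratios of replicate 3 to replicate 1, 1.72 and 1.44, were lower than the median of 1.78. The weaker peak starts 84 bp from the end of an HMS-Beagle transposable element of 7057 bp annotated in the intron, with the summit 312 bp away. The effect of this repeat on read placement was not tested.

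The first promoter of fne had a weak peak that missed the window as well. It stood 524 bp upstream of the first TSS in the pooled list with a signal of 79.2 (rank 15044), and had 42.6 in replicate 3 and 36.3 in replicate 1. Of the 8 pooled summits over fne, 7 were in introns and this one upstream. The weakest of the 8 was near the floor of the list, with a signal of 45.3 (rank 25862) and a −log10 q-value of 0.667. In both replicates were 5 of the 8, in replicate 3 alone 2 and in replicate 1 alone 1, which is near the shares over all pooled summits. No list had a summit beyond the TSS at X 12938517, the side on which the coding exons lie. Within 500 bp of an fne TSS, replicate 3 had a single summit with a signal of 36.4 and replicate 1 a single one with 19.3, at different TSSs, and the pooled list had none.

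Rbp9 had 1 IDR summit, in an intron downstream of its second TSS. The gene (FBgn0010263, plus strand, chr2L:2954762-2968434) has 3 TSSs. The summit, at 2L 2957688, lay 777 bp downstream of the second TSS, with signals of 247.5 in the IDR list (rank 3147), 142.0 in replicate 3 (rank 3842) and 102.7 in replicate 1 (rank 2796). The summits of both replicates stood 11 bp apart. A pooled summit, 20 bp upstream of a TSS at 2L 2959147, had a signal of 125.4 (rank 8605) and stayed below the IDR threshold. It was matched in replicate 1 (60.6, rank 7052) and had no summit within 100 bp in replicate 3, where the nearest stood 1450 bp away.

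Over Rbp9, the strongest summit was common to both replicates. Replicate 1 had 5 summits and replicate 3 had 1, and 4 of the 5 had no partner in replicate 3, beside 50.2% of all 30000 summits of replicate 1. Among these was a summit 735 bp upstream of the second TSS with a signal of 70.8 in replicate 1 (rank 5461), which was in neither replicate 3 nor the pooled list. Both replicate lists, like the pooled list, hold exactly 30000 peaks, which does not show that they are alike in depth. The cause of the difference over Rbp9 was not tested.

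**Figure D2:**
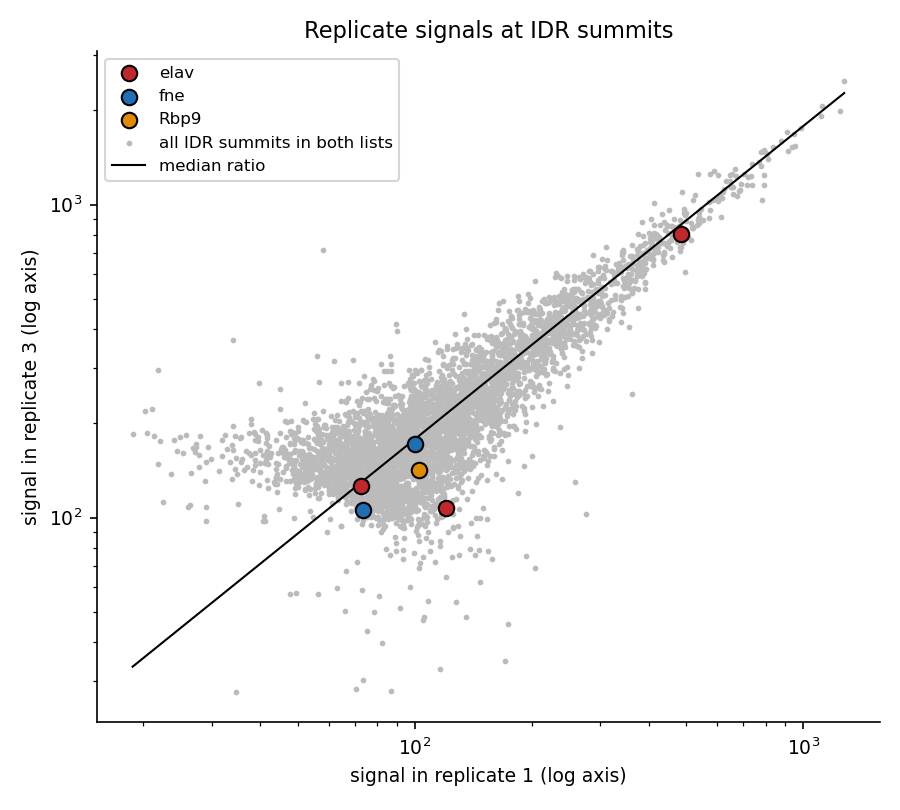
Signal in replicate 3 (vertical, log axis) against signal in replicate 1 (horizontal, log axis) at the 4630 IDR summits found in both replicate lists, with the 6 summits of elav, fne and Rbp9 in colour and the median ratio of 1.78 as a line. The elav promoter is at the upper right near the line, and the elav intron summit, at 107.3 in replicate 3 and 120.2 in replicate 1, is well below it.

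All 6 IDR summits of the family were matched in both replicates, and 92.5% of all IDR summits were. The sequences around the summits outside UTRs are shown to compare their composition and ETS cores. Each has 101 bases centred on the summit, on the strand of its gene, with GGAA or TTCC in capitals.
elav intron, chrX:522567-522667, minus strand: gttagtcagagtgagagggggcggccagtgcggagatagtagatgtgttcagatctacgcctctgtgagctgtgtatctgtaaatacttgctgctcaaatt
fne first summit, chrX:12925890-12925990, plus strand: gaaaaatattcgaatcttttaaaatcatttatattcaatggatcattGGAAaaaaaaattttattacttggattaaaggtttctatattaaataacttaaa
fne second summit, chrX:12937951-12938051, plus strand: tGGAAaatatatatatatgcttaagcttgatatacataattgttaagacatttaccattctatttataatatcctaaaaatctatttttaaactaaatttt
Rbp9, chr2L:2957638-2957738, plus strand: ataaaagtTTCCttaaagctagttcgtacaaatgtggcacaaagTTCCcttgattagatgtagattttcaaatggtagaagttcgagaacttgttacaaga

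The 2 fne windows were the most AT-rich of the 6, each with 17.8% G and C, and the elav intron window the least, with 48.5%. The elav promoter and the Rbp9 window had 33.7% each, close to the median of 34.7% over all IDR summits (quartiles 27.7 and 43.6%), and the elav 3′ UTR window had 26.7%. On both strands, GGAA was within 50 bp of 5 of the 6 summits, the exception being the elav intron, beside 56.2% of all IDR summits and 54.0% of windows centred 400 bp to either side. CGGAA, which contains GGAA, was within 50 bp of 1 of the 6, the summit in the elav 3′ UTR, beside 20.1% of all IDR summits and 14.3% of flanks. None of the 6 windows held the full ETS string CCGGAAGT, which 0.759% of IDR summits and 0.130% of flanks held. None held TAATTA, a homeodomain-type string, beside 9.69% and 6.46%. A set of 6 windows is too small for a comparison with these shares.

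Other genes of the nervous system were taken from 4 lists with 72 different genes outside the family. Of these, 16 (22.2%) had an IDR promoter summit and 27 (37.5%) a summit in the gene window, beside 15.6% and 24.7% over all genes. Promoter counts are read against the number of TSSs too, since 45.4% of the 1133 genes with 3 or more TSSs had an IDR promoter summit. The strongest promoter peaks of the 16 genes ran from 189.8 to 1808 with a median of 264.2. Of the 16, only msi was above elav, beside 64 of 2175 genes with a promoter summit (2.94%) overall. Since the family was chosen on the premise that elav differs from other neuronal promoters, nothing is read from the promoter values of the 4 lists.

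Neural RNA-binding genes had most of these promoter summits. Of 17, 9 (52.9%) had one and 12 (70.6%) had a summit in the window, with a median of 4 TSSs and a median window of 55998 bp. The shares were 15.6% and 24.7% over all genes. They were 45.4% for promoters of genes with 3 or more TSSs and 56% for windows of 15673 to 34941 bp, which are shorter than this median. The strongest promoter peak was that of msi, which encodes the RNA-binding protein Musashi of neural progenitors. Its signal was 1808 in the IDR list (rank 38), 1253 in replicate 3 and 535.4 in replicate 1. Next came mbl, a splicing regulator, with 756.2, shep with 515.6, ps, the Drosophila Nova homologue, with 489.5, and the translational repressor brat with 431.9. The signal at Sxl, the sex determination switch whose RNA recognition motifs are related to those of Elav, was 281.1. Several of these genes are known to act outside neurons as well.

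Genes whose transcripts Elav is known to process had 5 of 11 promoters with an IDR summit (45.5%) and 7 of 11 windows (63.6%). They had a median of 3 TSSs and a median window of 28055 bp. Of genes with 3 or more TSSs, 45.4% had a promoter summit, and 56% of genes with windows of 15673 to 34941 bp had one in the window. Both counts are near these shares. The signals at the 5 promoters were moderate. After brat came pum, a translational repressor, with 247.3, the cell adhesion gene Nrg with 222.5, AGO1 with 204.5 and the beta-catenin gene arm with 189.8. Of these, Nrg and arm are known Elav splicing targets. The summit at AGO1 also lay within 500 bp of the TSSs of CG33155 and mRpL53. The splicing target ewg had no IDR summit in its window.

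Of 34 synaptic, neurotransmitter and ion channel genes, 2 (5.88%) had an IDR promoter summit, beside 15.6% over all genes. That contrast was part of the choice of the family. In the window, 8 (23.5%) had a summit, beside 24.7% over all genes. Their median window was 27614 bp, however, and 56% of the 889 genes with windows of 15673 to 34941 bp had a summit. Both promoters with an IDR summit lay within 500 bp of another annotated start. Csp, a synaptic vesicle chaperone gene, had a signal of 230.8, and its summit was also close to an annotated transposable element. Rop, a regulator of vesicle fusion, had 205.6 at a promoter shared with Ras64B. In the unthresholded pooled list, 19 of the 34 promoters (55.9%) had a summit, beside 38.7% over all genes. Most of these promoter peaks were thus below the IDR threshold. The same held over all genes, where 5398 had a pooled promoter summit and 2175 an IDR one. ChAT, the acetylcholine synthesis gene, had an IDR summit of 468.3 in its window but none at its promoter.

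Neural progenitor genes had 2 of 14 promoters with an IDR summit (14.3%) and 3 of 14 windows (21.4%), near the 15.6% and 24.7% over all genes. They had a median of 1 TSS and a median window of 5265 bp. The asymmetric division gene numb had a signal of 727.0 and the Sox gene D one of 283.8. In the pooled list all 3 members of the elav family had a summit in the window, beside 48.9% over all genes. That share is not matched for length. The 889 genes with windows of 15673 to 34941 bp had a median of 2.79 pooled summits per 10 kb. A pooled summit in the window is thus common at this length. At a promoter, 2 of 3, elav and Rbp9, had one, beside 38.7% over all genes, a share not matched for the number of TSSs. The promoter summit of Rbp9 was matched in replicate 1 only.

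**Figure D3:**
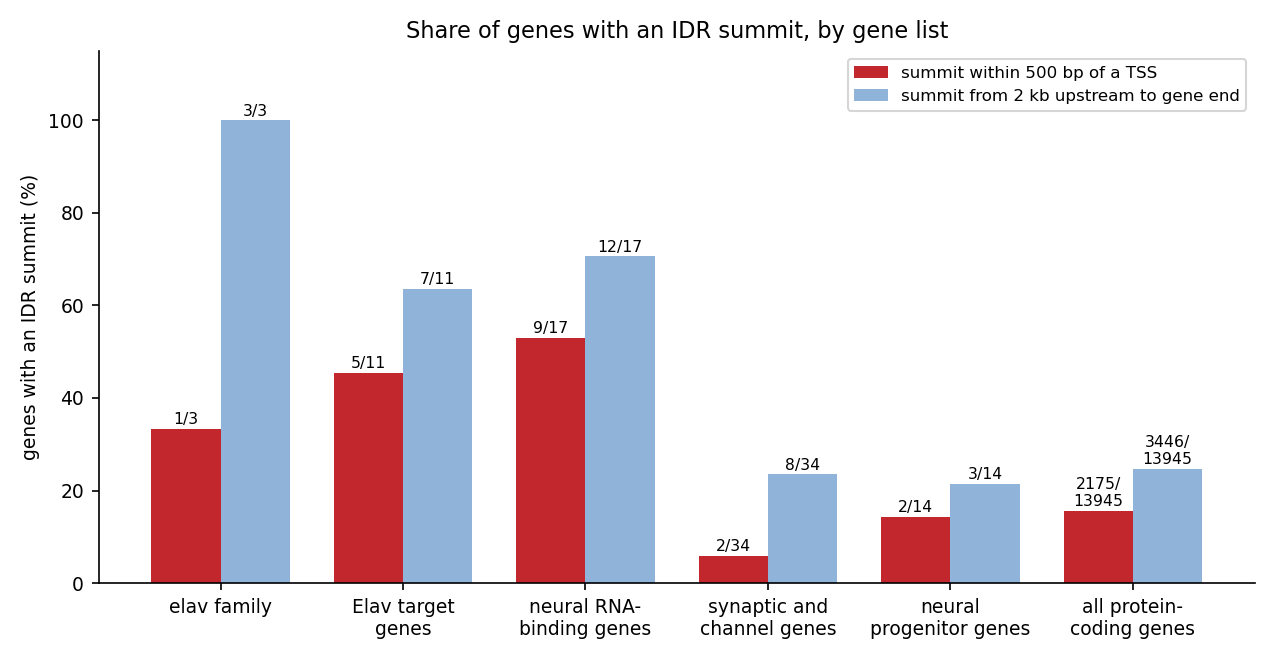
Share of genes (%) with an IDR summit within 500 bp of a TSS (red) and from 2 kb upstream to the gene end (blue), for the elav family, 4 lists of neural genes and all protein-coding genes, with the counts above each bar. The bars of synaptic and channel genes are 5.88% for promoters, the lowest of the promoter bars, and 23.5% for windows. The bar of all genes is not matched to any list for gene length or number of TSSs.

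**Figure D4:**
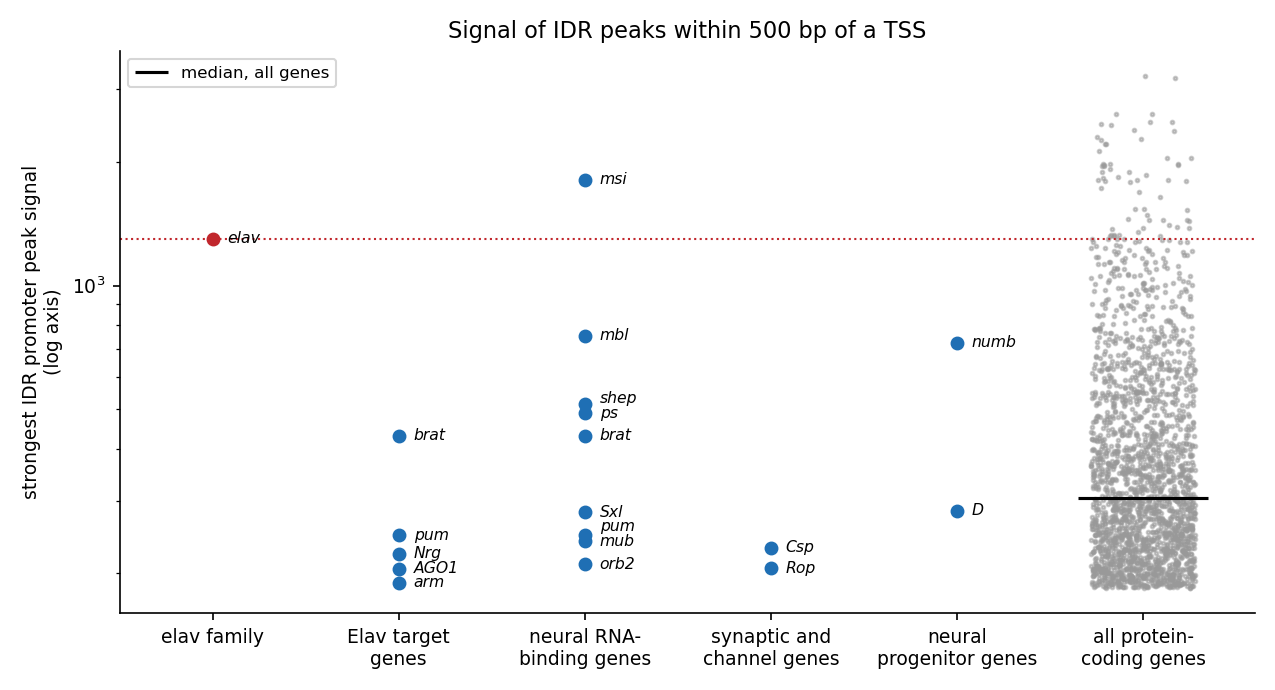
Signal of the strongest IDR promoter peak (log axis) for each gene that had one, in the elav family, 4 lists of neural genes and all 2175 protein-coding genes with a promoter summit. The dotted line is elav at 1299, and msi at 1808 is the only listed neural gene above it.

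The genes most like elav were found by the rank of the strongest promoter peak in each of the 4 lists, among 2076 genes with a promoter summit in all of them. The closest were Hrd3 and PTPMT1, which share 1 peak, and fray and CG7694, which share another. Mean differences in rank percentile from elav were 0.0999 points for the first pair and 0.106 points for the second. Hrd3 encodes a factor of endoplasmic reticulum protein degradation and fray a kinase. The peak of Hrd3 and PTPMT1 had a signal of 1300 in the IDR list, 785.5 in replicate 3 and 506.2 in replicate 1. That of fray and CG7694 had 1316, 791.8 and 486.2. Likeness here rests on 2 samples and on lists that share reads.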

How the data were processed

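Peaks were called by the authors on the alignments of each replicate and of both replicates pooled, each with a control library, and the IDR list was derived from these 3 lists, per the descriptions deposited with the files. No aligner, peak caller or IDR threshold is given in the sources used here. The deposited signal is the authors' value for each peak on assembly dm6. The deposited −log10 q-value was not used to select or rank summits. Summits, not intervals, were counted. Signal tracks were not analysed here and depth is unknown.

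Summits were placed on Ensembl release 115 (BDGP6.54) with Python 3.11.15 and pandas 2.3.3, and sequences were read from the RefSeq copy of the same assembly. All 9 annotated TSSs of the 3 members were at the same base in both annotations. Summits within 100 bp were matched. The counting steps were tested on simulated data. With 1 group, no test was made and each count stands beside the share over all genes. The members and gene lists were chosen with earlier results of these data known. In each list of other neural genes, up to 6 genes with the strongest IDR promoter summit are named in the text, as are genes with a TSS within 1000 bp of a member's IDR summit and the 4 genes most like elav. ChAT and ewg were named after their values were seen.

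Alternatives were the stronger 2502 IDR peaks, the 5004 strongest peaks of 1 replicate alone, windows starting 0 or 5000 bp upstream, promoters of 250 or 1000 bp and matching within 50 or 200 bp. A wider motif window of 100 bp on either side was chosen after seeing the data.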

Additional observations from a re-analysis of the deposited data

How the results depend on the processing

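Among the stronger 2502 IDR peaks, elav had 1 summit, fne 0 and Rbp9 0, and the promoter counts were 1 for Elav target genes, 5 for neural RNA-binding genes, 0 for synaptic and channel genes and 1229 for all genes. In the 5004 strongest peaks of replicate 3 alone and of replicate 1 alone, fne had 1 summit each, and all other counts were within 1.5 times the value reported. With promoters of 250 bp, 0 members of the family had a promoter summit, since that of elav lies 287 bp from its TSS, and 1 neural progenitor gene had one. With promoters of 1000 bp, all 3 members had one. With 100 bp on either side of the summit, 2 of 6 member summits had CGGAA in place of 1. The elav intron summit, the exception within 50 bp, then had 1 GGAA, beside 79.0% of all IDR summits with any. The stronger fne summit then had 1 TAATTA, beside 16.5% of all IDR summits with any. In all, 35 of 48 alternative values were within 1.5 times the reported count. No paired analysis was possible because the samples form 1 group. With 2 replicates and unknown depth, a summit missing from a list is not shown to be absent.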
